A study of Zea mays with 18 samples.

Results

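Glutathione transferase and h-type thioredoxin genes were followed in maize (Zea mays) endosperm of opaque2 (o2) mutants and wild type. Clones were taken whose gene symbol or listed synonym begins with gst or trh and a digit. This gave 12 of the 7466 cDNA clones with values. Of these, 11 clones represent 9 glutathione transferase genes (gst3, gst6, gst11, gst12, gst13, gst16, gst18, gst30 and gst41) and 1 represents the thioredoxin gene trh2. All 12 had a value on every array, and no filter on low values was applied. The genes gst18 and gst41 have 2 clones each, numbered here clone 1 and clone 2.

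The o2 groups were endosperm of the o2 mutant of the inbred line B46, of the o2 mutant of the inbred line M14, and of a pool of the o2 mutants of 8 lines (A619, B14A, B45, B46, B57, B66, B73 and M14), all collected 14 days after pollination. The wild-type groups were B46, M14 and the pool of the same 8 lines in their wild-type form, at the same stage. Each comparison held 3 independent pairs of o2 and wild-type mRNA on 2-colour arrays, and each pair went onto 2 arrays with the dyes exchanged, which gave 18 arrays. The 2 arrays of such a dye swap hold the same RNA and were averaged, so n = 3 replicates per comparison and 9 in all. The labels do not say which o2 allele the mutants carry or how the lines were derived, and the mixed pool lists B46 and M14 among its lines.

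Glutathione transferases join the tripeptide glutathione to reactive molecules, which marks them for removal from the cytosol. In maize they are best known for detoxifying herbicides and for their induction by safeners, and plants carry many gene copies of them. Thioredoxins are small proteins that reduce disulfide bonds of other proteins; the h type is mainly cytosolic and in cereal grain is known for acting on disulfide-bonded storage proteins. The protein made by o2, a bZIP transcription factor, activates zein storage protein genes in endosperm.

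Values are o2 over wild type in log units, above 0 where o2 endosperm had more transcript, centred so that each array has a median of 0. The base of the deposited logarithm is not stated; it may be 2 or e, and folds are given for both. They are ratios, so levels cannot be compared between genes, and the endosperm identity of the samples could not be checked from marker levels. Fewer cells of a type and less RNA per cell cannot be told apart in such bulk samples. A cDNA clone can bind transcripts of related family members, so the values of similar glutathione transferase genes may overlap.

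The sources used here do not state which sample was on top of the deposited ratio, so its direction is likely, not settled. The series' design names wild type before o2 in every comparison, so all arrays were taken to hold wild type over o2 and were then turned. Under this reading the clone of o2 itself was below 0 in 9 of 9 replicates, with means ± SD over 3 replicates of -0.67 ± 0.15 for B46, -0.37 ± 0.18 for M14 and -0.23 ± 0.29 for the mixed lines. So were pdk1 and the zein gene z1C1_12, textbook targets of o2. These values helped to choose the reading and are no independent check of it. The arrays of a dye swap nevertheless correlated below 0 over all clones in every replicate (r between -0.35 and -0.018). Among arrays with wild type on Cy5, those of mixed replicates 1 and 2 correlated below 0 with every B46 and M14 array. These r ran from -0.34 (M14 replicate 1 with mixed replicate 1) to -0.078. The B46 and M14 arrays correlated above 0 with one another (r between 0.12 and 0.44), as did mixed replicates 1 and 2 (0.28). The alternative reading is that the table holds Cy5 over Cy3, and the values were therefore also turned by the labelled dyes. Whether the labelled dyes of the mixed arrays are right was not tested, and their turned values depend on it. If the ratio instead ran the other way on every array, each value below would keep its size and change its sign.

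The 12 clones fell into 2 sets by how well the arrays of a dye swap matched. For trh2, gst11, both gst41 clones, gst6 and gst30 the mean gap between the 2 arrays was between 0.16 and 0.48 log units, under the median of 0.66 over all clones. For gst12, gst3, both gst18 clones, gst16 and gst13 it was between 1.51 and 2.59. The smallest gap was that of trh2, at percentile 2.32 of all clones, and the widest that of gst13, at percentile 95. The SE of the average ranged from 0.043 to 0.11 in the first set and from 0.088 to 0.36 in the second.

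**Figure D1:**
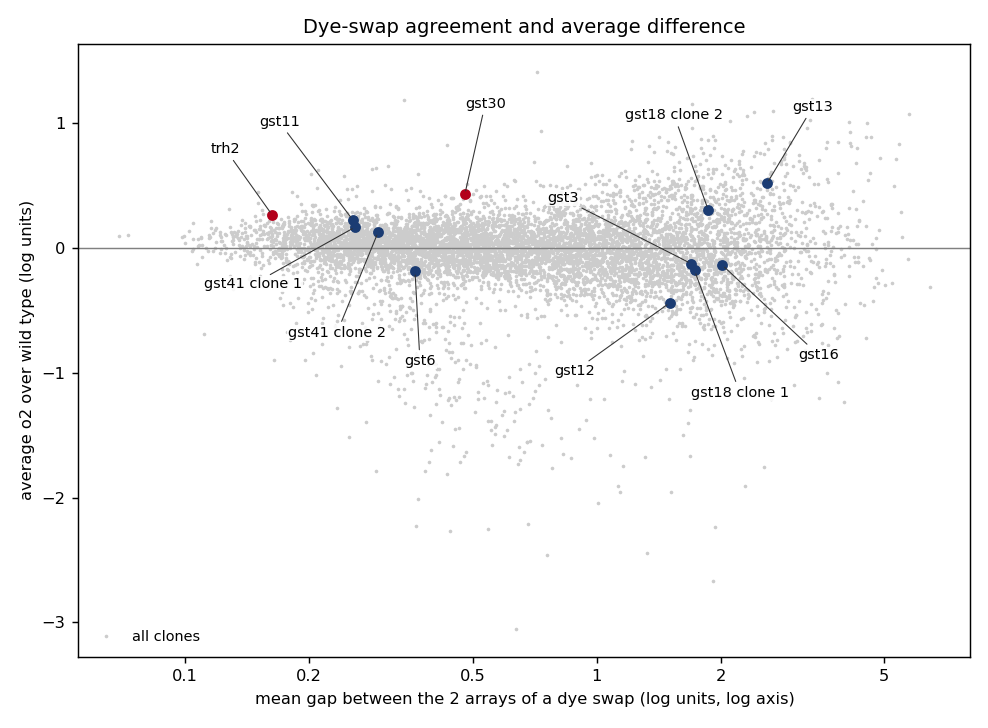
Mean gap between the 2 arrays of a dye swap (horizontal, log units on a log axis) against the average o2 over wild type (vertical, log units) for all clones (grey) and the 12 glutathione transferase and thioredoxin clones (red where the average passed the test, blue otherwise). Both red clones, trh2 at a gap of 0.16 and gst30 at 0.48, lie left of the 6 clones with gaps of at least 1.51.

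The gene gst30 (LOC541841), a glutathione transferase gene, had the lowest adjusted p of the 12 clones in the average, and o2 endosperm had more of its transcript than wild type in 9 of 9 replicates. Its B46 replicates stood at 0.53, 0.73 and 0.43 log units, its M14 replicates at 0.70, 0.32 and 0.40, and its mixed replicates at 0.49, 0.14 and 0.13. All B46 and M14 replicates lay above 0.3, while the mixed lines had 2 replicates nearer to 0. Its mean was 0.57 ± 0.15 for B46, 0.47 ± 0.20 for M14 and 0.25 ± 0.20 for the mixed lines (SD, n = 3 each). The difference passed the test in B46 (limma adjusted p = 0.0371 over all clones) and in the average of the comparisons (0.43 ± 0.067, SE, adjusted p = 0.0095), but not in M14 (0.28) or the mixed lines (0.562). On base 2 the difference is 1.48-fold in B46 and 1.35-fold in the average, and on the natural log 1.76-fold and 1.54-fold.

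On single arrays gst30 was above 0 on 16 of 18. Arrays with o2 on Cy5 averaged 0.37 ± 0.49 and arrays with wild type on Cy5 averaged 0.49 ± 0.17 (SD, 9 arrays each). The arrays below 0 were those of mixed replicates 2 and 3 with o2 on Cy5, at -0.16 and -0.52. Turned by the labelled dyes, gst30 would stand at -0.21 for B46, 0.061 for M14, 0.34 for the mixed lines and 0.061 in the average, above 0 in 5 of 9 replicates and past the test in none. The call in B46 ended without any 1 replicate of B46 (limma adjusted p between 0.0831 and 0.199), M14 replicate 2 (0.0513) or 3 (0.0636), or mixed replicate 2 (0.0656) or 3 (0.0679), and the call in the average held without each of the 9 replicates in turn (between 0.0206 and 0.0304). The gst30 call in the average ended with limma's trend and robust options (adjusted p = 0.0653), without M14 replicate 3 and mixed replicate 3 (0.0556) and without M14 replicate 1 and mixed replicate 1 (0.0743).

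The gene gst11 (LOC541829) was above 0 in all 9 replicates with smaller values. They were 0.44, 0.44 and 0.092 for B46, 0.40, 0.26 and 0.057 for M14, and 0.12, 0.045 and 0.19 for the mixed lines. In each of the 3 comparisons the replicates ran down to under 0.1, and the comparisons overlapped. Its mean was 0.32 ± 0.20 for B46, 0.24 ± 0.17 for M14 and 0.12 ± 0.071 for the mixed lines (SD, n = 3 each). The average of 0.23 ± 0.060 (SE) missed the threshold over all clones (limma adjusted p = 0.0731) and passed it without B46 replicate 3 (0.0404). Its average would be 0.035 when turned by the labelled dyes.

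Its neighbour gst12 (LOC541830) was less steady. In the gene table of the B73 reference (assembly Zm-B73-REFERENCE-NAM-5.0), gst11 and gst12 stand side by side with 0 genes listed between them. The gst12 replicates were -1.20, -1.29 and -0.42 for B46, 0.82, -1.11 and -0.69 for M14, and -0.46, 0.14 and 0.27 for the mixed lines. It was below 0 in all B46 replicates and on both sides of 0 elsewhere. Turned by the labelled dyes, its B46 replicates would be -0.063, 1.27 and -0.45, with a mean of 0.25. None of its means passed the test, at -0.97 ± 0.48 in B46 (limma adjusted p = 0.205), -0.33 ± 1.01 in M14 (0.798) and -0.016 ± 0.39 in the mixed lines (0.994). On 2 arrays, those of B46 replicate 2 and mixed replicate 2 with wild type on Cy5, gst12 held the single value that many clones share on that array, whose origin is not stated. The signs of gst11 and gst12 matched in 3 of 9 replicates (Pearson r = -0.26 over 9 replicates that share arrays, as a description).

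The 2 clones of gst41 (LOC541849) differed in how steady they were. Clone 1 stood at 0.16, 0.29 and 0.066 for B46, 0.17, 0.23 and 0.16 for M14, and 0.15, 0.14 and 0.15 for the mixed lines. It was above 0 in all 9 replicates, and over the 18 arrays its spread was among the smallest of all clones (SD 0.17, percentile 3.47). Its average of 0.17 ± 0.043 (SE) missed the threshold (limma adjusted p = 0.0628). Arrays with o2 on Cy5 averaged 0.057 ± 0.091, against 0.28 ± 0.15 on those with wild type on Cy5 (SD, 9 arrays each). In the mean, most of the value thus came from one dye orientation. In mixed replicates 1 and 2 the array with o2 on Cy5 was instead the higher (0.20 against 0.10, and 0.17 against 0.11).

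Clone 2 of gst41 lay above 0 in B46 and around it in M14. Its replicates were 0.47, 0.44 and 0.29 for B46, 0.10, -0.49 and -0.0030 for M14, and 0.19, 0.22 and -0.050 for the mixed lines. The B46 replicates lay above all others, without overlap. Under the labelled dyes they would be 0.014, 0.074 and 0.053, still above those of M14 (at most 0.0013) but below mixed replicate 3 (0.29). The difference of B46 from M14 was 0.53, with a 95% interval from 0.11 to 0.95, and did not pass over all clones (limma adjusted p = 0.42). The mean in B46, 0.40 ± 0.097 (SD, n = 3), did not pass either (0.146). The signs of the 2 gst41 clones matched in 6 of 9 replicates (Pearson r = -0.14).

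**Figure D2:**
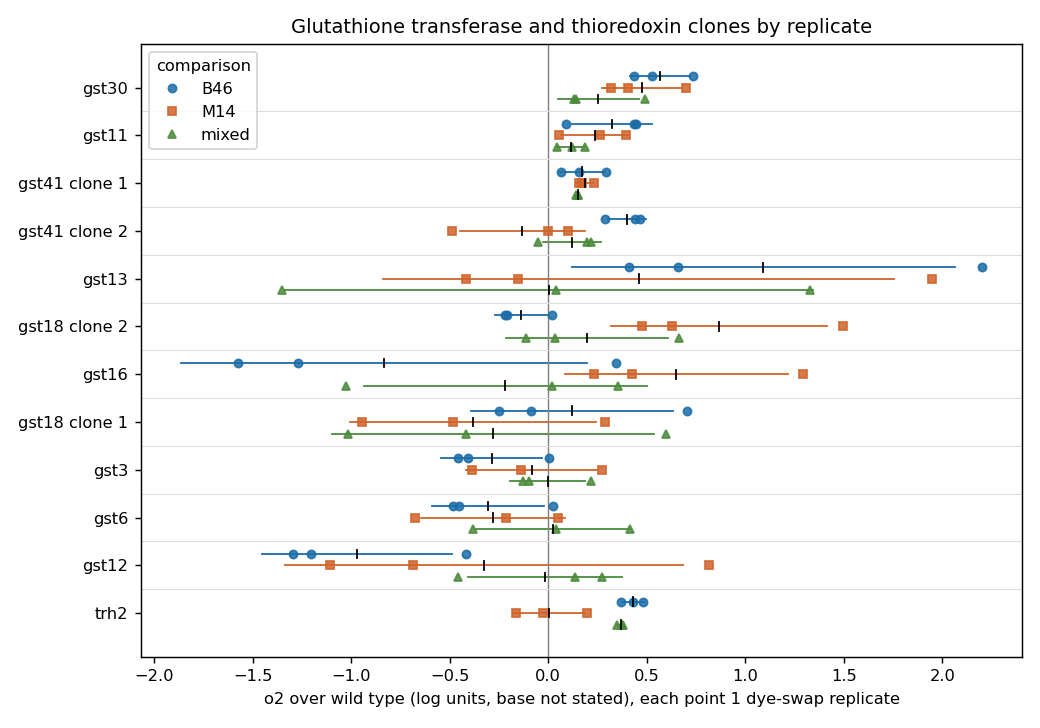
Values of the 12 clones in each dye-swap replicate (horizontal axis, o2 over wild type in log units), with B46, M14 and mixed lines below each other for every clone; points are replicates, black ticks means and lines 1 SD either side (n = 3). All 9 points of gst30, gst11 and gst41 clone 1 lie above 0, and the trh2 points of B46 and the mixed lines lie right of its M14 points under the direction used.

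Of the other glutathione transferase clones none passed the test in B46, M14, the mixed lines or the average. The gene gst6 (LOC541991), measured with small gaps between arrays, stood at -0.48, -0.45 and 0.024 for B46, -0.68, 0.051 and -0.22 for M14, and -0.38, 0.41 and 0.037 for the mixed lines. It was below 0 in 5 of 9 replicates and above 0 in 4. Its average was -0.19 ± 0.11 (SE, limma adjusted p = 0.382), with a 95% interval from -0.45 to 0.074. The gene gst3 (LOC541990), which encodes a long-studied maize glutathione transferase subunit and is listed with gst4 as a synonym, averaged -0.13 ± 0.088 (SE, adjusted p = 0.453), with replicates between -0.46 and 0.27. On 3 arrays, 1 of M14 and 2 of the mixed lines, gst3 held the value shared by many clones. Its replicates lay on both sides of 0 in each comparison.

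The gene gst13 (LOC541831) had the widest replicates, between -1.35 and 2.20. In B46 it stood at 0.41, 0.66 and 2.20, above 0 in all 3, for a mean of 1.09 ± 0.97 (SD, n = 3, limma adjusted p = 0.414). Its extremes came from single arrays: with wild type on Cy5 it read 5.22 in B46 replicate 3 and 5.14 in M14 replicate 1, while the partner arrays with o2 on Cy5 read -0.81 and -1.24. In M14 and the mixed lines it stood on both sides of 0.

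The 2 clones of gst18 (LOC541833) differed in M14. Clone 2 stood at 0.63, 0.48 and 1.49 there, against -0.22, -0.21 and 0.021 in B46, with no overlap. Clone 2 would overlap when turned by the labelled dyes, at -0.55, -1.02 and 2.53 in M14 and -1.14, 0.42 and -1.34 in B46. Clone 1 stood at -0.95, 0.29 and -0.49 in M14 and 0.71, -0.25 and -0.090 in B46. The M14 mean of clone 2, 0.87 ± 0.55 (SD, n = 3), did not pass the test over all clones (limma adjusted p = 0.28). The replicate of 1.49 averaged an array of -1.03 with o2 on Cy5 and one of 4.02 with wild type on Cy5. The difference of B46 from M14, -1.0 with a 95% interval from -1.72 to -0.28, did not pass either (0.397). The signs of the 2 clones matched in 4 of 9 replicates (Pearson r = -0.10).

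The gene gst16 (LOC542490) had opposite signs on the arrays of every B46 dye swap. With o2 on Cy5 they read -4.35, -2.95 and -1.26, and with wild type on Cy5 1.21, 0.41 and 1.94. The B46 mean was therefore -0.83 ± 1.03 (SD, n = 3, limma adjusted p = 0.341) under the reading used. Turned by the labelled dyes it would be 2.02, positive in all 3 replicates but also short of the threshold (0.107). In M14 gst16 stood at 0.42, 1.29 and 0.23, all above 0, and in the mixed lines at -1.03, 0.35 and 0.019, on both sides of it. A like split by dye was seen for gst18 clone 1, with 2.48, 0.29 and 0.53 in B46 with o2 on Cy5 and -1.07, -0.80 and -0.71 with wild type on Cy5.

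**Figure D3:**
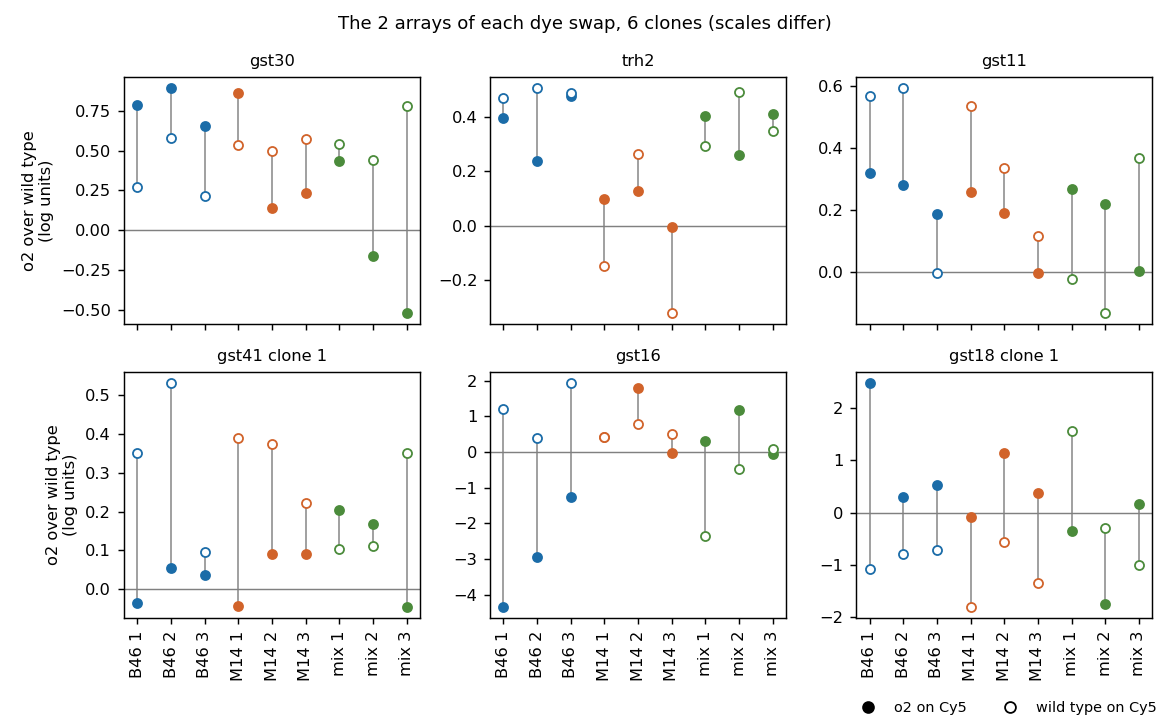
Single-array values (vertical axis, o2 over wild type in log units, scale set for each clone) of 6 clones in the 9 dye swaps; filled points are arrays with o2 on Cy5, open points arrays with wild type on Cy5, and a grey line joins the arrays of a swap. For trh2 the points of a B46 swap lie close together above 0, while for gst16 those of B46 lie on opposite sides of 0, down to -4.35.

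The thioredoxin gene trh2 (LOC606487, also listed as trxh2) lay above 0 in every B46 and mixed replicate, with little spread, and around 0 in M14. Its replicates were 0.43, 0.37 and 0.48 for B46, -0.026, 0.20 and -0.16 for M14, and 0.35, 0.38 and 0.38 for the mixed lines. The 3 M14 replicates lay below all 6 others, without overlap. This separation is lost when the values are turned by the labelled dyes, where M14 replicate 2 would stand at 0.068, above B46 replicates 1 and 3 (0.037 and 0.0069) and mixed replicates 1 and 3 (-0.056 and -0.032). Its mean was 0.43 ± 0.056 for B46, 0.0030 ± 0.18 for M14 and 0.37 ± 0.017 for the mixed lines (SD, n = 3 each). The difference passed the test in B46 (limma adjusted p = 0.0349) and in the average of the 3 comparisons (0.27 ± 0.050, SE, adjusted p = 0.0199), and did not pass in M14 (0.995) or in the mixed lines (0.281). On base 2 it is 1.35-fold in B46 and 1.20-fold in the average, and on the natural log 1.54-fold and 1.31-fold.

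The difference of trh2 between lines was tested directly. B46 exceeded M14 by 0.43, with a 95% interval from 0.14 to 0.71 (limma adjusted p = 0.389 over all clones). M14 minus the mixed lines was -0.36, with an interval from -0.65 to -0.079 (adjusted p = 0.86), and B46 minus the mixed lines was 0.061, from -0.22 to 0.35. After adjustment none of these differences passed, so a dependence of trh2 on the line was not shown. With all 18 arrays in the fit and the dye-swap pair as a random block, the difference of trh2 between B46 and M14 did pass (limma adjusted p = 0.0287). That fit counts the 2 arrays of a pair separately and applies 1 correlation below 0 (-0.24) to all clones. The trh2 arrays had 1 sign in 8 of 9 swaps, so this pass does not decide the question.

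On single arrays trh2 was above 0 on 15 of 18, with 0.27 ± 0.17 where o2 was on Cy5 and 0.27 ± 0.30 where wild type was on Cy5 (SD, 9 arrays each). All 3 arrays below 0 were from M14. Its arrays had 1 sign in 8 of 9 dye swaps, which 6.50% of all clones reached or exceeded. Turned by the labelled dyes, trh2 would stand at 0.059 for B46, -0.071 for M14, 0.0099 for the mixed lines and -0.00073 in the average. The B46 call ended without any 1 replicate of B46 (limma adjusted p between 0.117 and 0.157), M14 replicate 1 (0.0586), or any 1 mixed replicate (between 0.0675 and 0.0717). The call in the average ended without B46 replicate 1 (0.057) or 2 (0.0504), M14 replicate 1 (0.0528), or any 1 mixed replicate (between 0.0604 and 0.0641). It also ended with the replicate number as a block (0.0617), with limma's trend and robust options (0.0618) and without M14 and mixed replicates 3 (0.0717) or 1 (0.144).

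**Figure D4:**
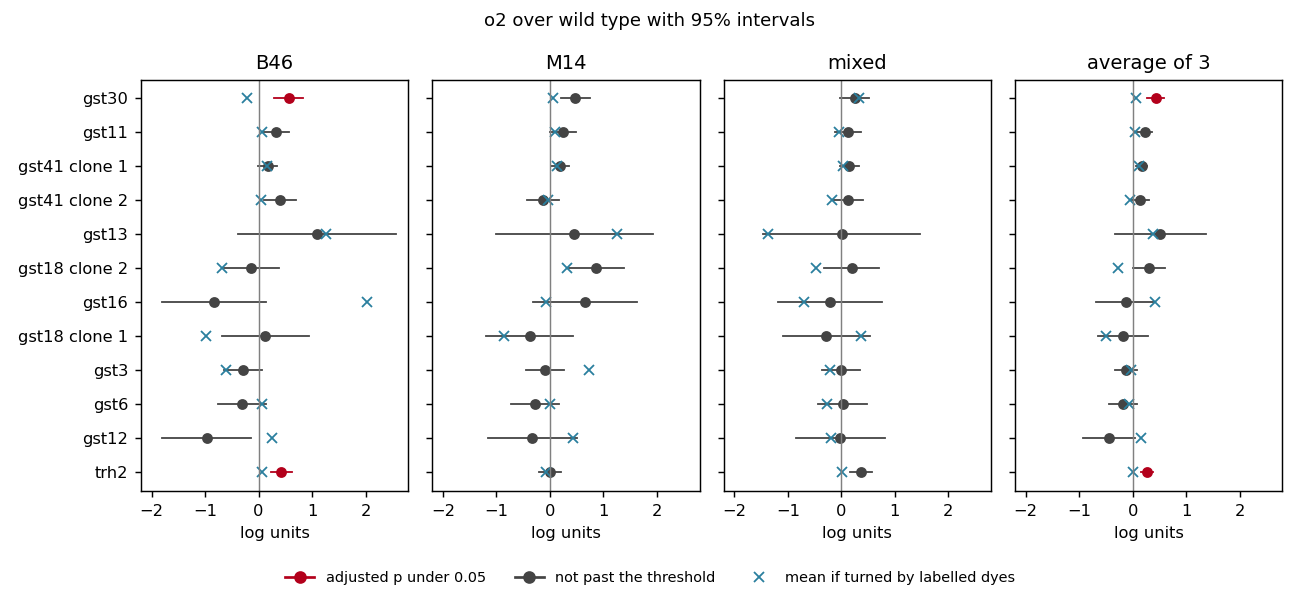
Fitted o2 over wild type (horizontal axes, log units) with 95% intervals for the 12 clones in B46, M14, the mixed lines and their average; red marks an adjusted p under 0.05, grey a value not past it, and blue crosses the mean if the values are turned by the labelled dyes. The red clones are gst30 and trh2, in B46 and in the average, and their crosses lie nearer to 0 or below it there.

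Counted together, 2 of the 12 clones were called in B46, both higher in o2, where 4.57% of all clones were called, 0.911% higher and 3.66% lower. In the average 2 were called, the same clones gst30 and trh2, where 6.91% of all clones were called, 1.97% higher and 4.94% lower. The average contains the B46 replicates, so both counts are partly built on the same values. In M14 and in the mixed lines limma called none of the 12 and 0% of all clones. At an unadjusted p under 0.05, 5 of the 12 passed in B46 (18.4% of all clones), 3 in M14 (12.3%), 1 in the mixed lines (9.28%) and 5 in the average (21.5%). Above 0 in all 9 replicates were 3 of the 12, beside 2.75% of all clones. Below 0 in all 9 were none, beside 5.28% of all clones, so 3 of the 12 kept 1 sign, beside 8.02%. Turned by the labelled dyes none of the 12 kept 1 sign (0.268% of all clones) and none was called in B46 (0.067%), M14, the mixed lines or the average (0% each).

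The 12 clones differed in sign. In the average 7 of 12 clones were above 0, beside 51.2% of all clones, and 5 below. Their median was 0.15 log units beside 0.0057 over all clones. The median was 0.15 for B46 (0.0068 over all clones), 0.095 for M14 (-0.0023) and 0.070 for the mixed lines (-0.013). The median of the 12, turned by the labelled dyes, would be 0.060 for B46 (0.0095 over all clones) and 0.076 for M14 (0.0041). For the mixed lines it would be -0.18 (-0.00080 over all clones), with 4 of 12 above 0 (49.8% of all clones). In the average it would be 0.017 (0.0055 over all clones), with 6 of 12 above 0 (51.7% of all clones). For the difference of B46 from M14, limma called 0 of the 12 and 0% of all clones, and 4 of the 12 had an unadjusted p under 0.05, where 9.82% of all clones did. For B46 minus the mixed lines and M14 minus the mixed lines it also called 0 (0% of all clones), with 0 and 1 of the 12 at an unadjusted p under 0.05 (5.28% and 5.04% of all clones). Replicates of B46 and M14 did not overlap for 3 of the 12 (gst18 clone 2, trh2 and gst41 clone 2), where 17.1% of all clones did not. For B46 and the mixed lines it was 1 (13.5% of all clones), and for M14 and the mixed lines 2 (12.9%). These counts, turned by the labelled dyes, would be 2 for B46 and M14 (gst16 and gst41 clone 2; 12.4% of all clones), 3 for B46 and the mixed lines (gst30, gst13 and gst16; 24.2%) and 2 for M14 and the mixed lines (gst13 and gst18 clone 1; 27.6%).

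Other genes of glutathione, thiol and peroxide chemistry gave 19 clones of 15 genes, among them superoxide dismutases, catalase, a peroxidase, protein disulfide isomerases, which carry thioredoxin folds, and transporters of the MRP class. Of these 19, 1 was called in B46 and in the average, where 4.57% and 6.91% of all clones were called. It was MRP4 (the gene lpa1, a transporter whose mutants have low phytic acid), on the list through the letters of its symbol, and it was lower. It fell by 0.77 in B46 and by 0.51 in the average (limma adjusted p = 0.0124 and 0.00545). None was called in M14 or the mixed lines (0% of all clones each). When turned by the labelled dyes none was called in any comparison (0.067% of all clones in B46, 0% elsewhere). Beside MRP4 the largest averages were those of the disulfide isomerase genes pdi6, at 0.57 ± 0.49, and pdi, at -0.45 ± 0.12 (SE), and neither passed the test (limma adjusted p = 0.545 and 0.0771). The list's median was -0.026 in the average, with 7 of 19 above 0, beside 0.0057 and 51.2% above 0 for all clones.

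The named clones most like gst30 and trh2 were looked up by Pearson correlation of the 9 replicate values, over the other 477 clones with a gene name. All points share arrays, comparisons and normalization, and no test was made. Closest to trh2 were eno1 (r = 0.95), an enolase gene of glycolysis, AGPLS3 (0.89), a large subunit of the starch enzyme ADP-glucose pyrophosphorylase, and Amy2 (0.81), listed also as BMY1. Each had larger values in B46 and the mixed lines than in M14, a pattern favoured by choosing them for their likeness to trh2. For eno1 these were 0.35 in B46, 0.22 in the mixed lines and -0.013 in M14. None of these clones was called in the average. Closest to gst30 were aprl8 (0.89), HD6 (0.83) and the cellulose synthase gene CesA-2 (0.82). These followed its pattern over the replicates at other levels: aprl8 averaged -0.21, HD6 0.065 and CesA-2 -0.33, against 0.43 for gst30.

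Markers of other tissues were measured by few clones. The 2 embryo markers ole1 and dehydrin3 lay between -0.14 and 0.029 over the 3 comparisons and the aleurone marker PLTP between -0.16 and 0.097. The green tissue clones lhcb5 and Lhcb5-2 lay between -0.44 and -0.046. The 4 symbols on the transfer layer list ranged between -1.26 and 0.36. One of them, MRP1, is also counted among the 19 clones of the redox list, since its symbol matched both lists. Its listed synonym, mrpa1, points to a transporter, and the annotation gives no description. It may thus be no transfer layer marker, and it averaged -0.032. Of the 4, bap2 (also listed as betl2) was called in the average. It stood at -0.81 for B46, -1.26 for M14, -1.23 for the mixed lines and -1.10 for the average (limma adjusted p = 0.00551). The 2 zein markers were below 0 in every comparison, between -2.89 and -0.38, and z1C1_12 was called in B46 and the average. The part of these tissues in the values of gst30 and trh2 was not tested.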

How the data were processed

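Arrays of 18 hybridisations (ImaGene 4.1 intensities, per the labels' protocols) were analysed from the deposited table of log ratios, here named log2 although the authors' log base, background correction, normalization and ratio direction are not stated in the labels. The 2 identical rows of each clone were merged, arrays centred on their median, turned to o2 over wild type, and dye-swap partners averaged. With R 4.3.3, limma 3.58.1 (functions lmFit and eBayes with 1 mean per comparison, no covariates, 9 replicates, Benjamini-Hochberg over 7466 clones, threshold 0.05) gave all adjusted p-values and intervals, and was tested on simulated data. On each array between 33 and 202 clones share 1 value of unstated origin. Of the clones, 489 (6.55%) had a gene name in an old platform annotation; synonyms came from the gene table of Zm-B73-REFERENCE-NAM-5.0, matched by gene identifier, and no coordinates are printed since the array names no build. Members, lists and tests were chosen with earlier results of these data known. Named are all member clones, redox clones called in any comparison or among the 3 largest averages, and the 3 named clones most correlated with gst30 and with trh2. The number of arrays limits the precision, and p-values measure the spread between sample pairs. Alternatives covered the direction, scaling, blocks, filters and left-out replicates; a background alternative was not run, as scanner intensities were not used here.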

Additional observations from a re-analysis of the deposited data

How the results depend on the processing

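Of the 12 clones, 2 were called in B46 (341 of all 7466 clones), 2 in the average (516 of all clones) and 0 in every other comparison (limma). Turned by the labelled dyes, 0 were called in B46 (5 of all clones) and 0 in the average (0 of all clones). In that setting gst30 in B46 would be -0.21 and trh2 in the average -0.00073. Of the redox list, MRP4 (lpa1) was the 1 clone called in B46 and in the average, and 0 were called in each in that setting. With the replicate block (the number as a covariate), 0 were called in B46 and 1 in the average. Over all clones, too, fewer were called with that block than in the main fit, both in B46 and in the average. Same-numbered samples correlated between -0.034 and 0.10, so the numbers were not taken as pairs. Without 1 replicate, between 0 and 1 were called in B46 and between 1 and 3 in the average. Without any 1 replicate of B46 or M14, fewer of all clones than in the main fit were called in B46 and in the average. Of all clones, 1 was called in B46 without B46 replicate 1, 205 without its replicate 2 and 7 without its replicate 3. B46 gave 1 with mean-centred arrays and 0 with arrays scaled to the same spread or with only its own replicates. With trend and robust options B46 and the average gave 0 each. A fit of 18 arrays took the dye-swap pair as a random block (consensus correlation -0.24) and counted the 2 arrays of a pair separately. It called 4 in B46, 1 in M14, 1 in the mixed lines, 4 in the average and 1 in B46 minus M14. Where no count over all clones stands beside it, a count of the 12 is not read as a result about them. Chosen after seeing the data were 2 alternatives. One left out M14 replicate 3 and mixed replicate 3 (smallest spread). The other left out M14 replicate 1 and mixed replicate 1 (the lowest correlation between arrays with wild type on Cy5). In both, 0 were called in B46 and 0 in the average. Causes were not tested. Over the alternatives other than the turned dyes, the average of gst30 lay between 0.35 and 0.46 and that of trh2 between 0.23 and 0.29. Several of these settings, such as the blocks and the trend and robust options, return the same mean. All gst30 replicates were above 0, so its unchanged sign is no test. The planned background alternative was not run.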
